A study of Homo sapiens with 4 samples.

Results

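Oxidative phosphorylation subunits are the proteins of the mitochondrial inner membrane that pass electrons from NADH and succinate to oxygen and use the resulting proton gradient to make ATP. They are built from 2 genomes, so their mRNAs come from separate transcription systems. Rows of the count files were taken as members when their gene names matched the subunit families of complexes I to V, and rows named as pseudogenes or antisense genes were left out. This gave 101 of 50868 genes, 88 encoded in the nucleus and 13 in the mitochondrial DNA. MT-ATP6 and MT-ATP8 were kept although their names end in P and a digit, the form by which pseudogenes were dropped.

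Complex I (NADH dehydrogenase), complex III (cytochrome bc1) and complex IV (cytochrome c oxidase) pump protons, complex II (succinate dehydrogenase) feeds electrons without pumping, and complex V is ATP synthase. Mitochondrial DNA is transcribed as long polycistronic RNAs from each strand, which are cut at the tRNAs that punctuate them, so that a transcription unit covers nearly all the genes of a strand. Nuclear subunit genes are scattered over the chromosomes, and many are known targets of the transcription factors NRF1, GABP and YY1. Complex II has no mitochondrially encoded subunit.

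The cells were A549, a human lung adenocarcinoma line. The 2 control libraries came from cells with the empty vector and the 2 USP12 libraries from cells overexpressing USP12, a deubiquitinase, and stranded mRNA libraries were sequenced for both. The labels do not say whether libraries of a group came from separate cultures, so the tests measure the spread between these libraries, which may be technical. USP12 itself had 15.2 and 34.4 CPM in control and 1745 and 2235 CPM in USP12 libraries. CPM stands for counts per 1000000 counts of a library, after the libraries were scaled by the TMM method.

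The libraries held between 14280081 and 16305356 counts. Control replicate 1 stood apart from the other 3 libraries, and its column heading carries another date-like prefix than theirs, and whether the prefix has a part in this was not tested. Over 15222 tested genes, the log2 difference had an SD of 1.32 for the control pair and 0.62 for the USP12 pair. The epithelial keratins KRT7, KRT8 and KRT18 had 1261 CPM or more in all libraries, while the lung markers SFTPB and NKX2-1 had 0 and at most 5 counts. PTPRC, a leukocyte marker, had at most 1 count and DCN, a fibroblast marker, 0. CD68, also in the leukocyte list, had 46.8 to 79.0 CPM, and COL1A1, in the fibroblast list, 2.60 to 18.9 CPM. Of 3 endothelial markers, the summed level was 15.4 and 8.59 CPM in control and 0.432 and 1.32 CPM in USP12 libraries. Leukocyte markers (5 genes, 1 of them at 0 in every library) summed to 52.5 to 112 CPM in control and 60.5 to 77.7 CPM in USP12 libraries, and the 5 fibroblast markers, 1 at 0 in every library, to 2.83 to 18.0 and 16.7 to 20.9 CPM. The part of these genes in the results was not tested.

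The mitochondrially encoded subunits took up a larger share of the RNA in USP12 cells. The 13 genes received 11.9% of all counts in control replicate 1 (95% Clopper-Pearson interval 11.9 to 11.9) and 12.1% in control replicate 2 (12.0 to 12.1), against 22.4% (22.4 to 22.4) and 20.3% (20.3 to 20.3) in USP12 replicates 1 and 2. The means were 12.0% ± 0.0952 (SD, n = 2) in control and 21.4% ± 1.48 (SD, n = 2) in USP12 libraries, a difference of 9.38 percentage points. The groups did not overlap, and the exact two-sided permutation test gave p = 0.333, the smallest value that 2 against 2 libraries allow. The intervals cover counting error only. The control libraries were close to each other in this summed share, but not in each of its genes. In control replicates 1 and 2, MT-ND3 had 3044 and 1047 CPM and MT-CO3 28584 and 16637 CPM. MT-CO2 had 10383 and 13817 CPM, in the other direction. With counts divided by gene length, the share was 22.1 and 25.9% in control and 39.2 and 38.2% in USP12 libraries.

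The 88 nuclear members received far fewer counts, and their share followed another pattern. It was 0.841% in control replicate 1, 0.578% in control replicate 2, 0.588% in USP12 replicate 1 and 0.558% in USP12 replicate 2. Only control replicate 1 was high, and the USP12 libraries lay on either side of control replicate 2 (exact permutation p = 0.667 for the group means). These shares include the mitochondrial counts in the total. Of the counts outside the mitochondrial genome, the nuclear members took 0.976 and 0.676% in control and 0.788 and 0.726% in USP12 libraries, so that both USP12 libraries lay between the controls (exact permutation p = 1). For each count on a nuclear member the mitochondrially encoded genes had 14.2 and 20.8 counts in control and 38.1 and 36.4 in USP12 libraries. On the log2 scale this ratio was 4.10 ± 0.39 in control and 5.22 ± 0.04 in USP12 cells (SD, n = 2 each), a difference of 1.12 with an exact permutation p of 0.333. Against control replicate 2 alone the log2 difference was 0.84, and against control replicate 1 alone 1.40.

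Genes were then compared by edgeR's quasi-likelihood test, with p-values adjusted by the Benjamini-Hochberg method over all 15222 genes that passed the filter on low counts. No gene of the whole table had an adjusted p under 0.05 (0%), so none of the 94 tested members passed. At an unadjusted p under 0.05, 8 of the 13 mitochondrially encoded genes were higher and 0 lower, against 3.04% of all tested genes higher and 4.55% lower. Of the 81 nuclear members tested, 0 were higher and 0 lower at that level. In 11 of the 13 mitochondrially encoded genes both USP12 libraries lay above both control libraries and in 0 below them, where 19.5% of all tested genes lay above and 17.0% below. Of the 81 nuclear members, 5 lay above and 11 below, both smaller shares than over all tested genes, and in the other 65 the groups overlapped.

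The median log2 fold change was 0.79 over the 13 mitochondrially encoded genes and -0.33 over the 81 nuclear members, beside -0.06 over all tested genes. The mitochondrially encoded values ran from -0.38 to 1.38, with 12 above 0 where 46.4% of all genes were. Nuclear values ran from -0.97 to 0.89, with 66 below 0 where 53.6% of all genes were. The highest was that of COX6B2 (SE 1.13), which had only 3 counts in control replicate 2, and the next was ATP5O at 0.71.

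The mitochondrially encoded subunits of cytochrome c oxidase, which form its catalytic core, included the members with the smallest p-values, MT-CO2 and MT-CO1. MT-CO2 (ENSG00000198712, chrM:7586-8269 in GRCh38) carries the copper centre that accepts electrons from cytochrome c. Its level was 10383 and 13817 CPM in control libraries and 35141 and 27877 CPM in USP12 libraries. The USP12 values lay above both controls, with a log2 fold change of 1.38 (standard error, SE, 0.28, edgeR quasi-likelihood adjusted p = 0.240). MT-CO1 (ENSG00000198804, chrM:5904-7445), the subunit that holds the oxygen-binding haem, had 29256 and 32032 CPM in control and 66852 and 59092 CPM in USP12 libraries. The groups did not overlap and the log2 fold change was 1.04 (SE 0.22, edgeR quasi-likelihood adjusted p = 0.274). MT-CO3 (chrM:9207-9990), the third large subunit, had 28584 and 16637 CPM in control and 42495 and 35622 CPM in USP12 libraries (log2 fold change 0.79, SE 0.32, edgeR quasi-likelihood adjusted p = 0.654). Its control libraries were further apart than those of MT-CO1.

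The ATP synthase pair of the mitochondrial DNA overlaps within a single mRNA. MT-ATP8 (chrM:8366-8572), a small stator protein, had 4651 and 4415 CPM in control and 8908 and 8664 CPM in USP12 libraries. The replicates of each group were close, and the log2 fold change was 0.95 (SE 0.26, edgeR quasi-likelihood adjusted p = 0.352). MT-ATP6 (chrM:8527-9207), the proton-channel subunit, had 2141 and 1802 CPM in control and 4487 and 3793 CPM in USP12 libraries (log2 fold change 1.07, SE 0.29, edgeR quasi-likelihood adjusted p = 0.355). Its end shares a base with the start of MT-CO3.

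MT-ATP6 shared its counts almost evenly with a nuclear copy. MTATP6P1 lies on chromosome 1 (633696 to 634376) in a block of mitochondrial DNA inserted in the nuclear genome, and 671 of its 681 bases are those of MT-ATP6. Its counts were 28329 and 31175 in control and 67325 and 55169 in USP12 libraries, between 48.9 and 51.9% of the counts of both genes together. The share was alike in all 4 libraries, so adding its counts to those of MT-ATP6 would leave the ratio between groups nearly as it is. MTND2P28, a copy of MT-ND2 with 98.4% identity in the same block, took between 5.33 and 7.76% of the counts of its pair. The copies of MT-ND1, MT-CO1, MT-CO2, MT-ATP8 and MT-CO3 in the block took at most 0.0462% each, at identities of 97.6 to 98.7%. Whether the fragments counted for MTATP6P1 came from the nuclear copy was not tested. Below are the 100 aligned bases of MT-ATP6 (chrM:8619-8718, plus strand) and of MTATP6P1 (chr1:633788-633887, plus strand) with the most differences, from GENCODE 44 on GRCh38. They are shown because they limit how fragments of this gene could be placed, and capitals mark the 4 bases that differ.
MT-ATP6: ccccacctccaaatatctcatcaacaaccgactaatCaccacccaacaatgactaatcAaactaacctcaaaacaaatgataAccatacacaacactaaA
MTATP6P1: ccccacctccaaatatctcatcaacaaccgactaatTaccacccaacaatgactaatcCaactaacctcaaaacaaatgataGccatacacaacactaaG

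MT-CYB (chrM:14747-15887) encodes cytochrome b, the mitochondrially encoded subunit of complex III. Its level was 8608 and 5538 CPM in control libraries and 14065 and 12055 CPM in USP12 libraries, with no overlap. The log2 fold change was 0.88 (SE 0.31, edgeR quasi-likelihood adjusted p = 0.540).

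The 7 complex I genes of the mitochondrial DNA, which form its proton-pumping arm, were less uniform, with a median log2 fold change of 0.56. MT-ND6 (chrM:14149-14673) is the member read from the other strand of the mitochondrial DNA. It had 87.3 and 151 CPM in control and 321 and 282 CPM in USP12 libraries, a log2 fold change of 1.34 (SE 0.40, edgeR quasi-likelihood adjusted p = 0.426). The groups did not overlap, and the gene was the least abundant per kilobase of the 13. MT-ND4 (chrM:10760-12137) had 15534 and 12907 CPM in control and 24222 and 21187 CPM in USP12 libraries, a log2 fold change of 0.67 (SE 0.25, edgeR quasi-likelihood adjusted p = 0.572). For MT-ND2 (chrM:4470-5511) the values were 7680.0 and 5502 CPM against 11974 and 9397 CPM, a log2 fold change of 0.70. MT-ND5 (chrM:12337-14148) had 4908 and 5176 CPM in control and 7228 and 7620.5 CPM in USP12 libraries, a log2 fold change of 0.56. These genes were higher in both USP12 libraries than in either control library.

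The remaining complex I genes showed smaller differences. MT-ND4L (chrM:10470-10766), which overlaps MT-ND4 on a shared mRNA, had 3154 and 3132 CPM in control and 3621 and 4398 CPM in USP12 libraries (log2 fold change 0.35, SE 0.28). The groups were apart but close. MT-ND1 (chrM:3307-4262) had 11034 and 6723 CPM in control and 11733 and 9584 CPM in USP12 libraries, and the groups overlapped (log2 fold change 0.26, SE 0.33). MT-ND3 (chrM:10059-10404) had 3044 and 1047 CPM in control and 1732.5 and 1420.3 CPM in USP12 libraries. Both USP12 values lay between the control values, and its log2 fold change of -0.38 (SE 0.52, edgeR quasi-likelihood adjusted p = 0.955) was smaller than the spread of the controls. No source says whether counting used strand, so counts of genes that overlap or face each other, MT-ND6 among them, are uncertain.

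**Figure D1:**
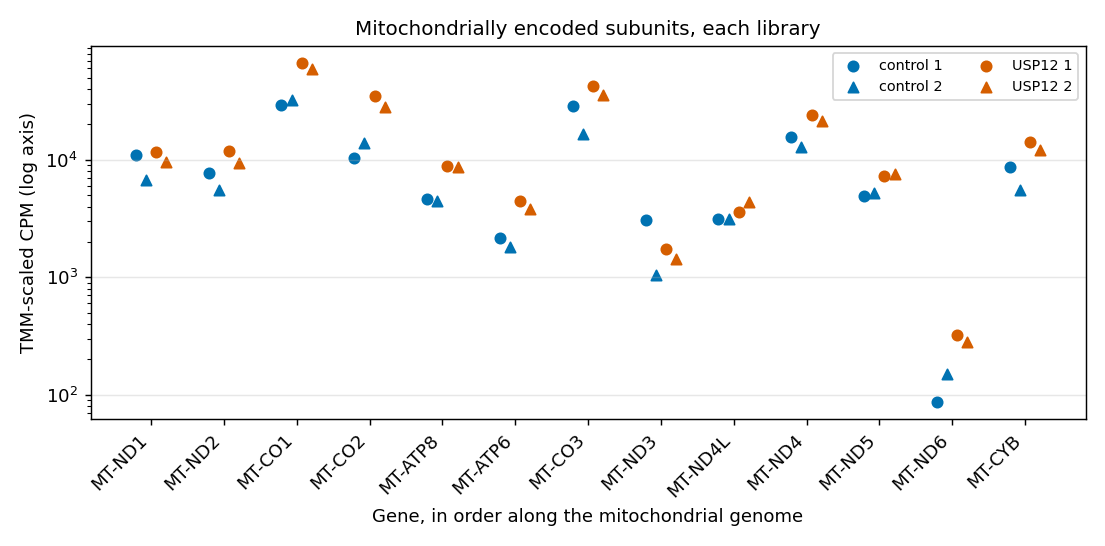
Level of each mitochondrially encoded subunit in each library, in TMM-scaled CPM on a log axis, with genes in their order along the mitochondrial genome. Blue points are control and orange points USP12 libraries; circles are replicate 1 and triangles replicate 2. In 11 of 13 genes both orange points are above both blue points, the exceptions being MT-ND1 and MT-ND3.

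In CPM per kilobase of gene, the mean over the 4 libraries was highest for MT-CO3 (39329), MT-ATP8 (32173), MT-CO2 (31878) and MT-CO1 (30355). It was lowest for MT-ND5 (3439.9) and MT-ND6 (401). MT-ATP6, on a shared mRNA with MT-ATP8, had only 4487, and its counts were split with MTATP6P1. How fragments were placed among overlapping genes and copies was not tested, so this is an order of counts, not of RNA abundance. The order of the highest genes changed between libraries, as MT-CO3 had 36459 CPM per kilobase in control replicate 1 and 21220.1 in control replicate 2, so these neighbours do not differ beyond their spread. Within the mitochondrially encoded counts, the share of MT-CO2 was 8.04 and 12.7% in control libraries and 15.1 and 13.9% in USP12 libraries. That of MT-ND3 was 2.36 and 0.962% in control and 0.744 and 0.707% in USP12 libraries. MT-ND4 held 12.0 and 11.9% in control and 10.4 and 10.5% in USP12 libraries. These shares are parts of a whole that itself was larger in USP12 cells. The mitochondrial ribosomal RNAs MT-RNR1 and MT-RNR2, which are no subunits, took up 1.88 and 2.41% of all counts in control and 2.90 and 2.84% in USP12 libraries (exact permutation p = 0.333). The authors filtered ribosomal RNA reads before mapping, and its part in these shares was not tested.

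With the replicate number as a block, 6 of the 13 mitochondrially encoded genes were higher at an adjusted p under 0.05 (edgeR's quasi-likelihood test) and 0 lower, against 1.01% of all genes higher and 1.65% lower. They were MT-ATP6, MT-ATP8, MT-CO1, MT-CO2, MT-CO3 and MT-CYB. That fit gave every gene the variance of the trend, as its prior degrees of freedom were infinite, against 4.15 in the fit without the block. Of the nuclear members, 0 were called with the block in either direction.

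Each control library was also left out, with the lone control assumed to vary like the USP12 libraries. Without control replicate 1, 8 of 13 mitochondrially encoded genes were higher (4.73% of all genes) and 0 lower (5.74% of all genes), at a median of 0.98. They were the 6 genes called with the block, MT-ND2 and MT-ND6. Without control replicate 2, 5 were higher (15.9% of all genes) and MT-ND3 was lower at -0.92 (16.3% of all genes were lower), at a median of 0.63. MT-CO1, MT-CO2, MT-ATP6, MT-ATP8 and MT-ND6 were called against either control library. In that order, their log2 fold changes were 0.98, 1.19, 1.20, 0.99 and 1.00 against control replicate 2 alone. Against control replicate 1 alone they were 1.13, 1.63, 0.98, 0.95 and 1.82. Leaving out USP12 replicate 1 or 2 instead gave a median of 0.67 or 0.92 over the 13 genes. None of the 13 was called then, beside 0.248% and 0.273% of all genes. The calls therefore depended on which library was left out. With an offset for GC content and length added to the block, 0 of the 13 were called, beside 1.25% of all genes in either direction. The prior degrees of freedom of that fit were 6.30, no longer infinite. The parts of the offset and of this change in the lost calls were not tested. Without a filter on low counts, MT-CO1 and MT-CO2 were called higher and 0 lower, where 0.673% of 24800 genes were higher and 1.46% lower. The prior degrees of freedom were infinite in that fit too.

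The nuclear members followed the difference between the control libraries. Their median log2 difference was 0.82 between control replicates 1 and 2, with 70 of 81 higher in control replicate 1 (49.5% of all tested genes). Between USP12 replicates 1 and 2 the median was 0.15, with 67 of 81 higher in USP12 replicate 1 (49.6% of all tested genes). Compared with control replicate 1, the USP12 libraries had a median of -0.66 and 9 of 81 members higher (51.8% of all tested genes). Compared with control replicate 2, the median was 0.17 and 54 of 81 were higher (50.4% of all tested genes). When control replicate 1 was left out of the fit, the median became 0.18. Without control replicate 2 it was -0.64. The direction of the nuclear median therefore depended on which control library was used. Of the 13 mitochondrially encoded genes, the USP12 mean was above control replicate 2 in 13 and above control replicate 1 in 11. Over all tested genes the shares were the same 50.4% and 51.8%.

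All 36 nuclear members of complex I were tested, with a median log2 fold change of -0.42. NDUFV1 (ENSG00000167792, chromosome 11, 67605653 to 67612554), the flavoprotein that takes electrons from NADH, had 113 and 68.1 CPM in control and 60.8 and 53.9 CPM in USP12 libraries. Both USP12 values were lower, with a log2 fold change of -0.66 (SE 0.41, edgeR quasi-likelihood adjusted p = 0.856). NDUFS1 (chromosome 2, 206114817 to 206159509), the largest iron-sulphur subunit, had 34.4 and 66.5 CPM against 42.8 and 50.7 CPM. The USP12 libraries lay between the controls. The nuclear members with the most counts in this complex, NDUFS5 and NDUFB11, had log2 fold changes of 0.12 and -0.46. NDUFA7 (chromosome 19, 8308768 to 8321375), a supernumerary subunit picked out after its values were seen, had 32.2 and 32.6 CPM in control and 17.2 and 19.9 CPM in USP12 libraries. Its control libraries were close, and the log2 fold change was -0.80 (SE 0.41, edgeR quasi-likelihood adjusted p = 0.794). RPS28 lies over this gene on the opposite strand, so its counts are uncertain.

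The 4 genes of complex II, which also works in the citric acid cycle, had a median of -0.15. SDHA (chromosome 5, 218303 to 257082), which oxidises succinate, had 194 and 126 CPM in control and 115 and 138 CPM in USP12 libraries. SDHB (chromosome 1, 17018664 to 17054032), the iron-sulphur subunit, had 67.6 and 72.5 CPM in control and 64.1 and 65.0 CPM in USP12 libraries, a log2 fold change of -0.12 (SE 0.35). SDHC, a membrane anchor, had a value of 0.11. The complex II genes differed less between the control libraries (median 0.26) than the other nuclear groups.

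Among the 9 nuclear genes of complex III, the median was -0.22. UQCRC1 (chromosome 3, 48599002 to 48610976), a core protein, had 261 and 123 CPM in control and 169 and 157 CPM in USP12 libraries. UQCRFS1 (chromosome 19, 29205320 to 29213151), the Rieske iron-sulphur protein, had 266 and 188 CPM in control and 250.4 and 227 CPM in USP12 libraries. In each of them both USP12 libraries lay between the controls. UQCRHL, a copy of UQCRH on another part of chromosome 1, was counted as a gene of its own, and near-identical copies of this kind make the split between such genes uncertain.

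The nuclear subunits of cytochrome c oxidase did not share the values of MT-CO1 to MT-CO3. Of 18 nuclear genes in this complex, 13 were tested, with a median of -0.41 beside 1.04 for the 3 mitochondrially encoded genes. COX4I1 (chromosome 16, 85798633 to 85807068), the largest nuclear subunit, had 171 and 94.1 CPM in control and 112 and 93.4 CPM in USP12 libraries (log2 fold change -0.37, SE 0.42, edgeR quasi-likelihood adjusted p = 0.942). COX5A (chromosome 15, 74919791 to 74938083) had 135 and 86.6 CPM in control and 88.3 and 79.1 CPM in USP12 libraries. COX6A1 (chromosome 12, 120438090 to 120440737) had 616 and 279.9 CPM in control and 346 and 294 CPM in USP12 libraries, and COX6B1 (chromosome 19, 35648323 to 35658782) had 293 and 128 CPM against 168 and 154 CPM. For COX6A1 and COX6B1 the USP12 libraries lay between the controls. The groups were apart for none of the 13, where 19.5% of all tested genes lay above and 17.0% below.

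Subunit forms known from other tissues had few or no counts. COX4I2, COX6A2, COX7B2 and COX8C had 0 counts in all 4 libraries, which allows a level of up to 0.166 to 0.227 CPM (3 counts) in each library. COX7A1, the heart and muscle form, had 1 count in 1 library. COX6B2, known from testis, had 2.04 and 0.166 CPM in control and 2.52 and 1.52 CPM in USP12 libraries. NDUFA4L2, a hypoxia-responsive relative of the complex IV subunit NDUFA4, had 5.30 and 8.70 CPM in control and 3.31 and 5.82 CPM in USP12 libraries. In both genes the groups overlapped. ATP5L2 and the read-through gene ATP5J2-PTCD1 had at most 1 count in any library and, with the 5 genes named before them, make up the 7 members that did not pass the filter.

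Of 15 tested nuclear genes of complex V, 10 had a log2 fold change below and 5 above 0, with a median of -0.14. The catalytic subunit ATP5B (now ATP5F1B, ENSG00000110955, chromosome 12, 56638175 to 56645984) had 665 and 496 CPM in control and 377 and 350.1 CPM in USP12 libraries. Both USP12 values were below both controls, with a log2 fold change of -0.67 (SE 0.33, edgeR quasi-likelihood adjusted p = 0.776). Its partner in the catalytic ring, ATP5A1 (now ATP5F1A, chromosome 18, 46080248 to 46104334), had 193 and 173 CPM in control and 218 and 208 CPM in USP12 libraries, a log2 fold change of 0.22 (SE 0.33). ATP5C1 (now ATP5F1C, chromosome 10, 7788147 to 7807815), the rotating central stalk, had 118 and 117 CPM in control and 187 and 177 CPM in USP12 libraries. Replicates were close in each group, and the log2 fold change was 0.63 (SE 0.33, edgeR quasi-likelihood adjusted p = 0.808). ATP5O (now ATP5PO, chromosome 21, 33903453 to 33915814), a peripheral stalk subunit, had 25.0 and 29.8 CPM in control and 48.0 and 41.3 CPM in USP12 libraries (log2 fold change 0.71, SE 0.39, edgeR quasi-likelihood adjusted p = 0.829). ATP5J2 (now ATP5MF), a small membrane subunit, had 341 and 175 CPM in control and 237 and 212 CPM in USP12 libraries, between the controls. ATP5C1 and ATP5O were picked out after their values were seen.

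Promoter windows of RefSeq on GRCh38.p14, from 250 bases before to 50 after the start of each gene, were found for 68 of the 88 nuclear members. They were searched on both strands for 3 motifs of known regulators of this family. GCGCANGCG, the core of the NRF1 motif, was in 32.4% of the matched members and 9.02% of 27305 genes in the table. The ETS motif bound by GABP, CCGGAAG, was in 29.4% and 12.2%, and AAGATGGCG, the YY1 motif, in 13.2% and 2.14%. At least 1 of the 3 was in 41 members, or 60.3%, and in 20.5% of all genes. A match is a description of letters, not of binding. The 120 bases before the start are shown for the nuclear members ATP5C1 (chr10:7788057-7788176, plus strand) and ATP5O (chr21:33915805-33915924, minus strand), which had the smallest p-values among the nuclear members with an estimate above 0, and for NDUFA7 (chr19:8321376-8321495, minus strand), which had a value below 0. Capitals mark NRF1 matches, and in ATP5C1 they are 2 overlapping matches on opposite strands. NDUFA7 has none of the 3 motifs in the stretch shown, and its YY1 match lies elsewhere in the window.
ATP5C1: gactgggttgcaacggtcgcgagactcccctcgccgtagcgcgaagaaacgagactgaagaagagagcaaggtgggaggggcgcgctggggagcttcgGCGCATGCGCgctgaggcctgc
ATP5O: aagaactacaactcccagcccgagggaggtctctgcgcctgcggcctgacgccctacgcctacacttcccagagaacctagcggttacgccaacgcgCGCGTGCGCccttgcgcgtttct
NDUFA7: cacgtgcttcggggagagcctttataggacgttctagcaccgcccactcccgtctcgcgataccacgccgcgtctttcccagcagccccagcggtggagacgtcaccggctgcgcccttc

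Other genes of the pathway were read from the same fit, and 0 had an adjusted p under 0.05. For the 49 assembly factors, the proteins that build the complexes, the median log2 fold change was -0.08. Of them 0 were higher and 0 lower at an unadjusted p under 0.05, beside 3.04% higher and 4.55% lower over all tested genes. At those shares, lists of 20 to 49 genes would hold few such genes. The 20 citric acid cycle genes had a median of -0.26 and 0 in either direction. The mitochondrial genome expression list, 34 genes that transcribe, process and translate mitochondrial RNA, had a median of -0.10 and 0 in either direction. Within it, TFAM, which packages mitochondrial DNA and starts its transcription, had 17.4 and 47.4 CPM in control and 29.3 and 31.4 CPM in USP12 libraries. POLRMT, the mitochondrial RNA polymerase, had 108 and 54.3 CPM in control and 66.1 and 61.5 CPM in USP12 libraries, and LRPPRC, which stabilises mitochondrial mRNAs, 58.9 and 160.2 CPM against 97.8 and 96.5 CPM. In these 3 genes, chosen after the values were seen, both USP12 libraries lay between the controls.

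The 77 mitochondrial ribosomal proteins had a median of -0.11, with 2 higher and 2 lower at an unadjusted p under 0.05, beside 3.04% higher and 4.55% lower over all tested genes. MRPS18A had 177 and 75.5 CPM in control and 51.3 and 49.0 CPM in USP12 libraries, and MRPL17 had 125 and 68.2 CPM against 48.3 and 39.6 CPM. Of 16 tested regulators of nuclear subunit genes, with a median of -0.31, 0 were higher and 3 lower at that level, beside the same 3.04% and 4.55%. PPARGC1A, a coactivator that drives mitochondrial biogenesis, had 0.757 and 1.66 CPM in control and 0.0720 and 0 CPM in USP12 libraries. The USP12 values are at or under the 3 counts taken as the limit (0.216 and 0.208 CPM), so no fold change is given. EPAS1, a hypoxia-inducible factor, had 155 and 148 CPM in control and 56.6 and 88.2 CPM in USP12 libraries, a log2 fold change of -1.07 (SE 0.39, edgeR quasi-likelihood adjusted p = 0.564). MYC had 40.4 CPM in control replicate 1 but 2.16 CPM in control replicate 2, and 2.45 and 2.70 CPM in USP12 libraries, so its lower estimate rested on control replicate 1.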

How the data were processed

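RNA of 4 A549 libraries (2 control, 2 USP12, grouped by title) was made into stranded mRNA libraries. The authors trimmed adaptors, filtered ribosomal RNA reads, mapped to GRCh38 with HISAT2 2.0.4 and deposited raw counts of uniquely mapped fragments from StringTie 1.3.0. Annotation release and strand setting are not given in the sources used here. Members and lists were chosen with earlier results of these data known. Genes passing filterByExpr (15222) were scaled by TMM and fitted in R 4.3.3 with edgeR 4.0.16. The test was tried on simulated counts with the same dispersion for all genes. That is unlike these data, so the trial does not show how the test behaves here. Standard errors were taken from fold change and F statistic. Differences between libraries used log2 CPM with a prior count of 2. Positions, lengths and GC content came from GENCODE 44, which held all 101 members. Text names all mitochondrially encoded members, core subunits (1 is not reported here), the 2 most counted nuclear members per complex, tissue-limited forms, members under an adjusted p of 0.05 (none here) or with the 6 smallest unadjusted p under 0.05 in each direction, untested members and, in other lists, genes under an unadjusted p of 0.05 with an absolute log2 fold change of 1 or more. Alternatives were DESeq2 1.42.0 size factors and Wald test, scaling from nuclear genes, 2 filters, the exact test, the replicate block, an offset for GC content and length (for 99.2% of genes), both, each library left out, and, for summed shares, per-length counts and fewer genes.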

Additional observations from a re-analysis of the deposited data

How the results depend on the processing

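Of 168 comparisons of group results with an alternative, 148 kept their direction and stayed within the spread between replicates, or within 1.5 times for counts. The labels give no shared source for libraries of the same replicate number. Same-numbered libraries deviated together with a correlation of 0.152 across genes, which cannot settle whether the replicate block is a pairing. Of 81 nuclear members, 70 were higher in control replicate 1 and 67 in USP12 replicate 1, beside 49.5% and 49.6% of all tested genes. With the replicate block, 6 mitochondrially encoded genes were called higher (1.01% of all genes), and 2 when low counts were not filtered (0.673% of 24800 genes). Both fits had infinite prior degrees of freedom. The other fits that kept all libraries called 0 mitochondrially encoded genes. Over all genes, the Wald test called 2.67% in either direction and the exact test 2.82%. The block with the GC content and length offset called 1.25% and that offset alone 0.179%. The remaining fits with all libraries called 0% of all genes, so their 0 is no result about the members. The nuclear median was -0.24 with the block. When 1 library at a time was left out, 0 to 34 nuclear members were called lower and 0 to 5 called higher. Of the mitochondrially encoded genes, 0 to 1 were called lower and 0 to 8 higher. The 34, the 5 and the 1 came from the fit without control replicate 2, where 16.3% of all genes were lower and 15.9% higher. The 8 came from the fit without control replicate 1, where 4.73% of all genes were higher. With either USP12 library left out, no member was called, beside 0.248% and 0.273% of all genes. The nuclear median ranged from -0.64 to 0.18, the highest value without control replicate 1, and the mitochondrial median from 0.63 to 0.98. The same range was -0.67 to 0.077 for complex I, -0.30 to -0.0027 for complex II, -0.61 to 0.32 for complex III, -0.71 to 0.13 for complex IV and -0.42 to 0.28 for complex V. It was -0.18 to 0.049 for assembly factors, -0.31 to -0.041 for the citric acid cycle, -0.15 to 0.37 for mitochondrial genome expression, -0.40 to 0.23 for the nuclear regulators and -0.30 to 0.092 for the mitochondrial ribosome. The difference of the nuclear and mitochondrial medians ranged from -1.26 to -0.80. For complex II the median was -0.27 with the offset for GC content and length, and -0.28 with the replicate block and that offset. Per length, the mitochondrial share differed by 14.7 percentage points. Among named members, the estimate changed sign in 22 of 415 comparisons. Depth was not varied, and what it limits was not tested beyond the level that 3 counts allow.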
